A study of Homo sapiens with 12 samples.

Results

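Gene expression was compared between TF-1 cells carrying the K89E mutant of GNB1 and TF-1 cells carrying the empty retroviral vector, both sampled 12 hours after the cytokine GM-CSF was taken away. The arrays were chosen by their titles, and they are 6 of the 12 arrays of the series, 3 of each line. TF-1 is a human erythroleukaemia line whose growth depends on GM-CSF. All groups are stable TF-1 lines made with the puromycin vector pMSCVpuro: K89E cells without GM-CSF, empty vector cells without GM-CSF, K89E cells kept in GM-CSF and empty vector cells kept in GM-CSF, with 3 arrays of biological triplicates each. Whether a line was a clone or a pool is not given in the sources used here. Cells with unmutated GNB1 in the vector were not analysed here, so an effect of the mutation cannot be told apart from any other difference between the lines.

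GNB1 encodes a beta subunit of heterotrimeric G proteins. When a receptor activates the G protein, the alpha subunit binds GTP and releases the beta-gamma pair, which then acts on effectors such as phosphoinositide 3-kinases, phospholipase C beta and ion channels. GM-CSF signals by another route, through a receptor that activates JAK2 and STAT5 and, further on, the RAS-MAPK and PI3K pathways. The comparison asks which genes the lines express at different levels once GM-CSF is absent.

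The rows of the deposited table are labelled by Ensembl gene ID alone, with no symbol beside it. Of the 59792 genes in the reference used to look up symbols, 0 came with an Ensembl ID. No gene could therefore be named, and gene programs, cell type markers and the level of GNB1 itself were not analysed here. The differences are described by their number, size, level and dependence on GM-CSF, with 2 IDs in each direction in full. The IDs were chosen among called genes whose withdrawn arrays did not overlap between the lines, so that separation is no finding.

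After withdrawal, K89E cells had higher levels of 1434 genes and lower levels of 1322 genes than empty vector cells, by limma at an adjusted p under 0.05. They made up 12.5% of the 21996 genes tested, 6.52% higher and 6.01% lower. At an unadjusted p under 0.05 there were 5438 genes. The arrays of the lines did not overlap in 2719 of the 2756 called genes, nor in 25.4% of the genes tested. Across all genes, log2 levels correlated at 0.994 to 0.996 between a K89E and an empty vector array, at 0.997 to 0.998 between K89E arrays and at 0.996 to 0.997 between empty vector arrays. The median SD of a gene between arrays of a group was 0.0704 on the log2 scale in K89E cells and 0.0745 in empty vector cells. The median standard error of a difference was 0.0674, and the smallest difference that was called measured 0.07.

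Most of the differences were small, and the larger ones ran mainly upward in K89E cells. The median log2 difference was 0.29 among the genes called higher and -0.20 among those called lower, against -0.01 over all genes tested. Below a 1.2-fold difference, 602 called genes were higher and 946 lower. From 1.2-fold upward the order turned, with 832 higher and 376 lower. At 2-fold or more, 33 were higher and 6 lower, together 0.177% of the genes tested. At 3-fold or more, 3 were higher and 1 lower. The tails over all genes had the same shape, with 1% of the genes above a log2 difference of 0.52 and 1% below -0.35. Centring each array on its median gave 1488 higher and 910 lower, or 62.1% higher against 52.0% as reported above. From 1.2-fold upward it gave 911 higher and 316 lower, and quantile normalization gave 814 and 386. The count of lower genes was 868 when empty vector withdrawn replicate 2 was left out, and 742 in the fit on these 6 arrays alone.

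**Figure D1:**
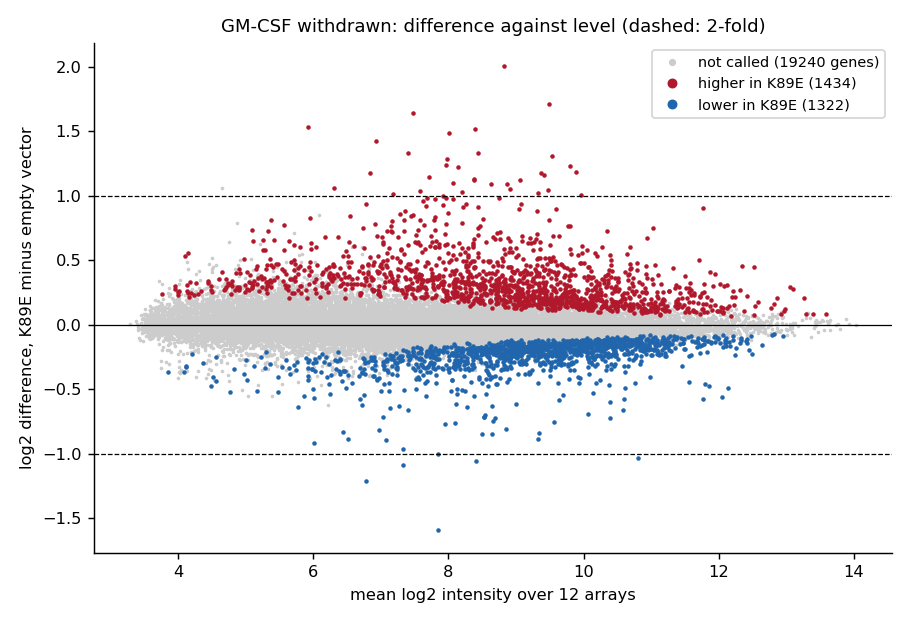
Log2 difference between K89E and empty vector cells after withdrawal (vertical axis) against mean log2 intensity over 12 arrays (horizontal axis), 1 point per gene, with genes called higher in red, called lower in blue and others in grey. Beyond the dashed 2-fold lines lie 33 called genes above and 6 below.

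Genes of all levels were represented, but bright genes were called more often and by smaller differences. Genes were ranked by mean level and divided into 4 equal bins of 5499. The brightest bin held 645 genes higher in K89E cells and 719 lower. In the next bin 473 were higher and 446 lower. The third bin held 190 higher and 124 lower, and the dimmest 126 higher and 33 lower. The median standard error was 0.0395 in the brightest bin and 0.0807 in the dimmest, and the median absolute log2 difference of the called genes was 0.18 and 0.33 in the same bins. The excess of lower genes in the brightest bin depended on the scaling. Quantile normalization gave 701 higher and 707 lower there, and centring on array medians gave 658 and 476. The excess of higher genes in the dimmest bin was present under both, with 96 higher and 56 lower by quantiles and 149 and 24 by centring. None of the genes called at 2-fold or more lay in the dimmest bin, while 18 of the 33 higher and 3 of the 6 lower lay in the second brightest.

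**Figure D2:**
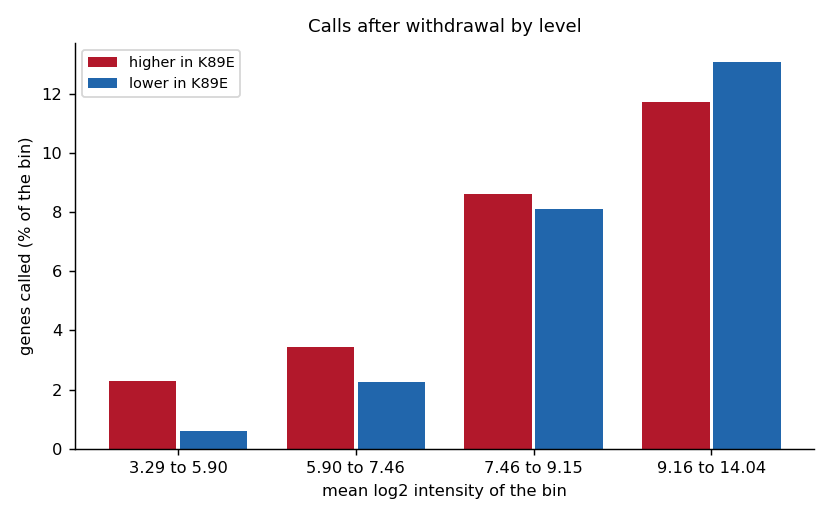
Share of genes called higher (red) and lower (blue) in K89E cells after withdrawal, in percent of the genes of each of 4 equal bins (vertical axis), by mean log2 intensity of the bin (horizontal axis). The share called higher is 2.29% in the dimmest bin and 11.7% in the brightest, and the share called lower is 0.600% and 13.1%.

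ENSG00000165929 was furthest above the empty vector level. Its intensities in the withdrawn K89E arrays were 857.5, 705.7 and 833.0, against 181.1, 190.9 and 224.4 in the withdrawn empty vector arrays. The lowest K89E array was more than 3 times as bright as the highest empty vector array. The log2 difference was 2.01 (SE 0.10, 95% confidence interval 1.80 to 2.21, limma adjusted p = 2.9e-08). With GM-CSF kept, the intensities were 877.2, 758.7 and 949.3 in K89E arrays and 321.2, 287.4 and 325.4 in empty vector arrays. The K89E arrays of both conditions covered overlapping ranges, while the empty vector arrays were dimmer after withdrawal than with GM-CSF.

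ENSG00000223609 followed, at 1646.3, 1464.5 and 1392.7 in withdrawn K89E arrays, against 438.2, 464.7 and 468.5 in withdrawn empty vector arrays. Its log2 difference was 1.71 (SE 0.08, 95% confidence interval 1.54 to 1.88, limma adjusted p = 2.6e-08), or 3.28-fold. With GM-CSF kept, it stood at 1098.3, 990.3 and 946.7 in K89E arrays and at 418.5, 340.0 and 408.3 in empty vector arrays. In both lines the withdrawn arrays were all brighter than the GM-CSF arrays.

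ENSG00000166265 was furthest below the empty vector level. Its intensities in the withdrawn K89E arrays were 168.4, 120.1 and 123.6, against 363.5, 430.4 and 432.5 in the withdrawn empty vector arrays. The groups did not overlap, as the choice of IDs required, and K89E replicate 1 was brighter than the other K89E arrays. The log2 difference was -1.59 (SE 0.14, 95% confidence interval -1.88 to -1.30, limma adjusted p = 3.7e-06). With GM-CSF kept, the values were 161.1, 124.8 and 114.0 in K89E arrays and 420.6, 393.2 and 358.3 in empty vector arrays. The ranges of each line overlapped between the conditions.

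ENSG00000079102 was the second in this direction, at 92.7, 70.6 and 75.5 in withdrawn K89E arrays, against 165.2, 204.5 and 179.6 in withdrawn empty vector arrays. Its log2 difference was -1.21 (SE 0.10, 95% confidence interval -1.42 to -0.99, limma adjusted p = 3.0e-06), or 2.31-fold lower. With GM-CSF kept, it stood at 75.7, 72.5 and 74.0 in K89E arrays and at 124.1, 140.2 and 136.6 in empty vector arrays. The withdrawn empty vector arrays were brighter than every other array for this ID.

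**Figure D3:**
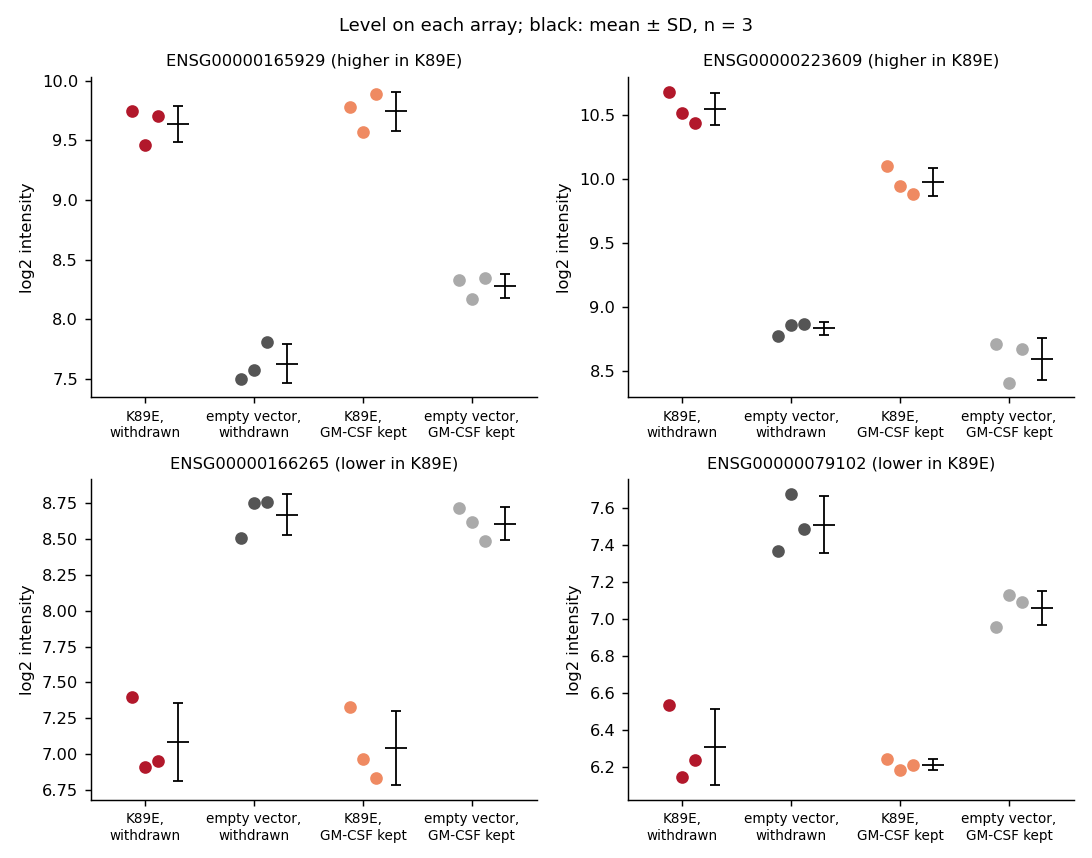
Log2 intensity (vertical axis) of the 4 IDs on each array, by group (horizontal axis), with the mean ± SD of 3 arrays in black. In each panel the K89E arrays lie apart from the empty vector arrays of the same condition. After withdrawal, this separation was a condition for choosing the IDs. The mean log2 level of ENSG00000165929 is 9.64 in withdrawn K89E cells and 7.63 in withdrawn empty vector cells.

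The differences of the 4 IDs were also present with GM-CSF. The log2 difference with GM-CSF kept was 1.46 for ENSG00000165929 (SE 0.10, limma adjusted p = 7.6e-07) and 1.38 for ENSG00000223609 (SE 0.08, limma adjusted p = 2.4e-07). It was -1.56 for ENSG00000166265 (SE 0.14, limma adjusted p = 6.9e-06) and -0.85 for ENSG00000079102 (SE 0.10, limma adjusted p = 9.2e-05). The effect after withdrawal minus that with GM-CSF was tested for each as a contrast of contrasts, and it was called for 0 of the 4. This log2 difference of effects was 0.54 for ENSG00000165929 (limma adjusted p = 0.37, 95% confidence interval 0.25 to 0.84) and 0.33 for ENSG00000223609 (limma adjusted p = 0.70, interval 0.09 to 0.57). It was -0.02 for ENSG00000166265 (limma adjusted p = 1.00, interval -0.43 to 0.39) and -0.36 for ENSG00000079102 (limma adjusted p = 0.83, interval -0.66 to -0.05). With the replicate number as a block within each line, the difference was called for ENSG00000165929 (limma adjusted p = 0.042) and not for the other 3 IDs. That fit was added after seeing the data. No planned fit called the difference for ENSG00000165929, and the replicate block over all groups gave a limma adjusted p of 0.069. The intervals are not adjusted for the number of genes, and those of 3 of the IDs leave out 0.

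The same held for nearly all genes that differed at least 2-fold after withdrawal. The arrays kept in GM-CSF share none with the withdrawn arrays, but they come from the same lines. Both comparisons also use one estimate of each gene's spread, which favours a second call, so the calls with GM-CSF are no independent repeat. Of the 33 genes higher in K89E cells, 32 were also called higher with GM-CSF kept, and of the 6 lower genes 6 were also called lower, where 5.21% and 4.39% of all genes tested were called in these directions and 9.61% in either. The log2 differences of the 33 ran from 1.01 to 2.01 after withdrawal, with a median of 1.18. With GM-CSF kept they ran from 0.07 to 1.63, with a median of 1.02, and 18 reached 2-fold. The 6 lower genes had a median of -1.07 after withdrawal and of -0.89 with GM-CSF, and 1 reached 2-fold there. A larger absolute effect after withdrawal was seen in 26 of the 33 and in 6 of the 6, but these genes were picked for a large effect after withdrawal, which favours that order. Without K89E withdrawn replicate 2, 3 genes were lower at 2-fold or more.

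The remaining gene of the 33 was variable, at a mean log2 level of 6.84 against a median of 8.38 for the 33. The level of ENSG00000079102 was 6.77. The intensities of the remaining gene were 127.8, 210.8 and 140.9 in withdrawn K89E arrays, against 57.6, 87.3 and 65.2 in withdrawn empty vector arrays. With GM-CSF kept, they were 152.3, 149.8 and 96.6 in K89E arrays and 115.1, 192.5 and 85.6 in empty vector arrays, so that the groups overlapped. The log2 difference was 1.18 after withdrawal (limma adjusted p = 0.010) and 0.07 with GM-CSF (limma adjusted p = 0.94). The difference of effects, 1.10 (SE 0.38), was not called (limma adjusted p = 0.72).

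The group means of these genes were ordered as follows. Among the 33 higher genes, withdrawn empty vector cells had the lowest mean of the 4 groups in 25, and K89E cells kept in GM-CSF had the highest mean in 18 and withdrawn K89E cells in 15. Among the 6 lower genes, withdrawn empty vector cells had the highest mean in 6 and K89E cells kept in GM-CSF the lowest in 6. The choice by a large difference after withdrawal favours extreme means in the withdrawn groups, so these counts describe the chosen genes and were not tested.

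**Figure D4:**
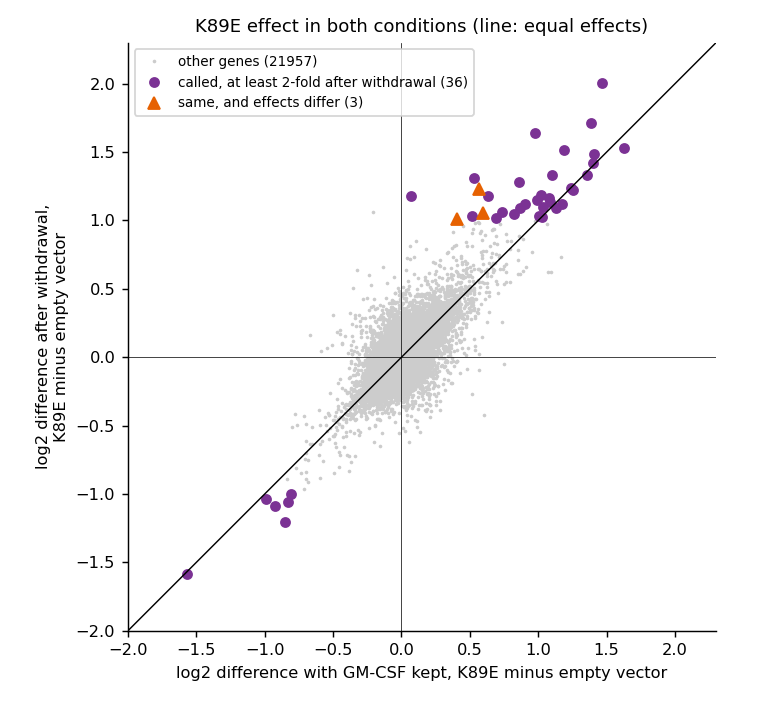
Log2 difference between K89E and empty vector cells after withdrawal (vertical axis) against that with GM-CSF kept (horizontal axis), 1 point per gene, with the line of equal effects. The 39 genes called at 2-fold or more after withdrawal are drawn large, and the 3 of them whose effects differed by the contrast of contrasts are triangles.

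A difference of effects between the conditions was called for 15 genes, 0.0682% of those tested. Of these, 14 were called after withdrawal, 13 higher and 1 lower in K89E cells, and 11 were called with GM-CSF kept. Over all genes tested, 12.5% and 9.61% were called in these conditions. Only 4 of the 15 were called after withdrawal alone, and 1 with GM-CSF alone. A difference of effects makes a call in at least 1 condition likely, so these counts describe the genes and were not tested. In 12 of the 15 the K89E effect was larger in absolute terms after withdrawal than with GM-CSF. The difference of effects ranged from 0.27 to 0.66 in absolute log2 terms. Which genes were called depended on the fit. With the replicate number as a block 8 genes were called, 7 of them among the 15, and with a prior variance without a trend 5 were called, 4 of them among the 15. With the replicate number as a block within each line, a fit added after seeing the data, 27 were called, 11 of them among the 15. Of the genes at 2-fold or more after withdrawal, 3 were among the 15. The first had intensities of 951.6, 867.8 and 962.8 in withdrawn K89E arrays, against 384.4, 426.1 and 373.7 in withdrawn empty vector arrays. With GM-CSF it had 1713, 1514 and 1557 in K89E arrays and 968.1, 1130 and 1126 in empty vector arrays. It was dimmer after withdrawal in both lines, and the withdrawn K89E arrays lay just below those of empty vector cells with GM-CSF. Its log2 difference of effects was 0.66 (SE 0.10, limma adjusted p = 0.027).

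The second of these genes stood at 567.0, 580.1 and 582.4 in withdrawn K89E arrays, against 290.0, 283.9 and 260.9 in withdrawn empty vector arrays. With GM-CSF it stood at 720.6, 717.9 and 705.5 in K89E arrays and at 467.9, 472.9 and 474.2 in empty vector arrays. Its withdrawn K89E level was above that of empty vector cells with GM-CSF. The third stood at 964.5, 1020 and 962.3 in withdrawn K89E arrays, against 451.7, 478.7 and 536.2 in withdrawn empty vector arrays, and at 1581, 1814 and 1580 in K89E arrays and 1244, 1235 and 1271 in empty vector arrays with GM-CSF. Its withdrawn K89E level was below that of empty vector cells with GM-CSF. The log2 differences of effects were 0.45 (SE 0.06, limma adjusted p = 0.015) and 0.61 (SE 0.09, limma adjusted p = 0.024). The number of calls of a difference of effects depended on single arrays, in fits that hold fewer arrays. Leaving out replicate 1 or 3 of the withdrawn K89E arrays, or replicate 2 or 3 of the empty vector arrays with GM-CSF, gave 0 such genes. Leaving out replicate 2 of the K89E arrays with GM-CSF gave 1, and leaving out any 1 withdrawn empty vector array gave 5 or 6. Without replicate 3 of the K89E arrays with GM-CSF 8 were called, and without replicate 1 of the empty vector arrays with GM-CSF 9.

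Many genes were called after withdrawal and not with GM-CSF, yet few of them were shown to differ between the conditions. They numbered 1295, with 586 higher and 709 lower in K89E cells. The difference of effects was called for 4 of the 1295, where 0.0682% of all genes tested were called. At an unadjusted p under 0.05 by limma there were 215 of the 586 and 147 of the 709, against 1234 of the 21996 genes tested. The difference of effects has a larger standard error than either effect, so a gene not called may still differ. The 586 had a median log2 difference of 0.26 after withdrawal and 0.09 with GM-CSF, where 514 of them had a positive one. The 709 had medians of -0.19 and -0.09, and 658 of them were negative with GM-CSF. The 845 genes called higher in both conditions had medians of 0.33 after withdrawal and 0.30 with GM-CSF, and the 612 called lower in both had medians of -0.22 and -0.21. Each of these groups of genes was defined by the calls, which favours smaller effects with GM-CSF in genes not called there. It also favours a difference of effects in them, so the medians and counts describe the groups and are no test.

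In 4 genes the K89E effect was called in opposite directions, and the difference of effects was called for 2 of them. The 1 gene lower in K89E cells after withdrawal had intensities of 1469, 1533 and 1429 in withdrawn K89E arrays, against 1592, 1577 and 1612 in withdrawn empty vector arrays. With GM-CSF kept it had 1399, 1370 and 1355 in K89E arrays and 1248, 1201 and 1167 in empty vector arrays. Its log2 difference was -0.11 after withdrawal and 0.19 with GM-CSF, and the difference of effects was -0.30 (SE 0.05, limma adjusted p = 0.038). The other gene with a called difference had 424.8, 431.5 and 439.3 in withdrawn K89E arrays, against 378.7, 362.3 and 388.5 in withdrawn empty vector arrays, and 407.9, 384.8 and 377.4 in K89E arrays and 467.7, 492.2 and 468.3 in empty vector arrays with GM-CSF. Its difference of effects was 0.49 (SE 0.06, limma adjusted p = 0.015). In both genes the arrays of the 2 lines did not overlap in either condition.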

How the data were processed

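RNA from 12 TF-1 cultures was measured on 12 arrays, and the deposited intensities are linear values that the authors had normalized. RMA is named in the submitters' processing notes, and no source used here gives the array type, probe set definitions or build. The intensities ran from 9.31 to 17476, and array medians of the withdrawn samples from 174.7 to 176.8 in K89E and from 174.3 to 179.9 in empty vector cells. The number of arrays limits the precision, and no source used here gives a batch or date. All 21996 rows were converted to log2 with no pseudocount and fitted on all 12 arrays with limma 3.58.1 in R 4.3.3, with group means and a prior variance that follows the level. Tests were 2-sided, adjusted by Benjamini-Hochberg over all rows, and called at an adjusted p under 0.05. The code of the fit was tried on data simulated with independent genes, most of them unchanged, which does not test the calls reported here. The 3 comparisons were K89E against empty vector after withdrawal, the same with GM-CSF, and their difference. The planned rule named genes with a symbol from calls whose arrays did not overlap. Without symbols, it left the 2 largest differences per direction as IDs, and the gene and marker lists were not used. Genes described without an ID were chosen after their values were seen. Members, lists and rule were chosen with earlier results of these data known.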

Additional observations from a re-analysis of the deposited data

How the results depend on the processing

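Without symbols no gene program could be described, and 3 arrays per group limit what was called. Counts are for K89E against empty vector after withdrawal, K89E against empty vector with GM-CSF, and the difference of effects. A 2-fold minimum, which takes out small changes by construction, left 39 genes after withdrawal (33 higher, 6 lower), 23 with GM-CSF and 0 for the difference. The fit on the 2 groups compared, which holds fewer arrays, called 1756 genes after withdrawal, 742 of them lower. Array weights called 3226 with GM-CSF. For the difference, 5 genes were called with a prior variance without a trend and 8 with the replicate block over all groups. The cause of these shifts was not tested. Leaving out 1 array gave 2027 to 2770 calls after withdrawal (1072 to 1437 higher, 868 to 1333 lower), 1307 to 2226 with GM-CSF and 0 to 13 for the difference. With GM-CSF, the lowest counts were 1307, 1403 and 1398, without empty vector GM-CSF replicate 2 or 3 or K89E GM-CSF replicate 2. Deviations of same-numbered arrays of different lines correlated at -0.201 to 0.045, with no sign of pairing. Within a line, same-numbered arrays of both conditions correlated at 0.0456 to 0.233 in K89E and at 0.0514 to 0.0920 in empty vector cells, and differently numbered ones at -0.210 to 0.112 and at -0.0706 to 0.0190. All 6 same-numbered pairs of a line were thus positive, but 1 of the 6 was above 0.1, a hint of pairing from the data and not from the labels. A replicate block within each line, added after seeing the data, called 27 genes for the difference, among them ENSG00000165929. The replicate block over all groups called 2697 genes after withdrawal and 2016 with GM-CSF. Of the 39 genes at 2-fold or more, 38 stayed called the same way with array weights, 37 of the 37 tested did when the dimmest 33.3% of the genes were left out, and 39 did under every other refit. All 88 checks of the 4 IDs after withdrawal kept direction and call, but many changed only the standard error. The checks include the 2-fold minimum, which applies a threshold to the reported fit and is no refit. The difference of effects of ENSG00000166265, near 0 and not called, was -0.18 to 0.12 in fits without 1 array and positive in 6. Other refits of the 4 IDs kept direction.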
